A study of Mus musculus with 24 samples.

Results

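Adjacent sets of 3 columns in a count table of mouse brain RNA were compared: columns 19 to 21, in which Sgk1 and Apold1 were high, and columns 22 to 24. These are 6 of the 24 libraries of the series. Both sets were picked on the measured levels of Sgk1 and Apold1 within time code 15, so every difference between them is a description of these 6 libraries and carries no test. Columns 19, 20 and 21 are libraries E3-15 2, E4-15 2 and E3-15 3, and columns 22, 23 and 24 are E4-15 3, E3-15 4 and E4-15 4. The first set is titled May, May and June, and the second is titled June throughout. Each set holds both E codes, with 2 libraries of E3 in the first and 2 of E4 in the second.

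All libraries measured polyadenylated RNA from brain, and the labels give no region, strain, sex, age, treatment or animal. The series title concerns ApoE4, but the labels spell out neither the E code nor the time code. The titles call the libraries biological replicates without saying that they came from separate animals, so p-values below measure only the spread between these samples. The labels do not say whether the 3 libraries of a column set came from 3 animals or from parts of 1. Each set carries both E codes, but the third column of every set was the hindbrain-rich one; if a set were 1 animal, each side of a comparison would hold n = 1 and the p-values would say nothing of differences between animals. Total counts were 39.8 to 57.6 M (M, mega) in the 6 libraries and 37.4 to 99.5 M over all 24. The pan-neuronal marker Snap25, a synaptic vesicle fusion protein, was at 2189 to 3067 CPM, the count scaled to library size, in the 6 libraries. The third column of each set was rich in hindbrain: the cerebellum and hindbrain list of 12 genes summed to 3566 CPM in column 21 and 5144 CPM in column 24, against 214 to 295 CPM in the other 4. Gabra6, which granule neurons of the cerebellum express as part of a GABA receptor, reached 347 and 499 CPM in those columns and at 0.0976 to 4.59 CPM in the others. All log2 differences below are columns 19 to 21 minus 22 to 24, with a term for the third column and a standard error (SE). CPM are not scaled to gene length, so levels are compared between libraries and not between genes.

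Sgk1 encodes a serum- and glucocorticoid-regulated kinase whose transcription is raised by the glucocorticoid and mineralocorticoid receptors and by cell stress. Early-response genes are switched on within minutes of a stimulus without new protein synthesis. Apold1 is an early-response gene described in vascular endothelium, and Zfp36 encodes tristetraprolin, which binds AU-rich messenger RNAs and speeds their decay.

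Sgk1 stood at 159.9, 153 and 167 CPM in columns 19, 20 and 21, and at 77.9, 93.8 and 89.1 CPM in columns 22, 23 and 24. The sets did not overlap, and the hindbrain-rich column 21 was as high as the other 2 columns of its set. The means were 160.1 ± 7.27 CPM and 86.9 ± 8.15 CPM (SD, n = 3 each), a log2 difference of 0.88 (SE 0.09). The other 18 libraries ran from 51.7 to 77.4 CPM, so both sets lay above all of them. Columns 17 and 18, also of time code 15 and titled May, were at 57.2 and 55.9 CPM, against 159.9 and 153 CPM in the May columns 19 and 20. Among the June columns, 21 was at 167 CPM and 22 to 24 at 77.9 to 93.8 CPM. Column 21 is the only June library of its set, and the part of month was not tested.

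Apold1 stood at 28.8, 32.1 and 32.1 CPM in columns 19 to 21 and at 18.2, 16.1 and 16.7 CPM in columns 22 to 24. The 2 sets did not overlap, and the 18 other libraries, at 2.47 to 11.1 CPM, lay below both. The log2 difference was 0.86 (SE 0.09).

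Zfp36 went the opposite way between the sets. It stood at 12.2, 12.6 and 14.1 CPM in columns 19 to 21 and at 16.2, 17.0 and 20.3 CPM in columns 22 to 24, again without overlap, with a log2 difference of -0.46 (SE 0.09). All 6 libraries lay above the 5.28 to 10.0 CPM of the other 18. Of 20900 genes, Sgk1, Nfkbia, Apold1, Zfp36, Tcim and Foxf1 were above all 18 other libraries in every one of columns 19 to 24, and Trim21 was below; Nfkbia, Tcim, Foxf1 and Trim21 were named after their values were seen.

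**Figure D1:**
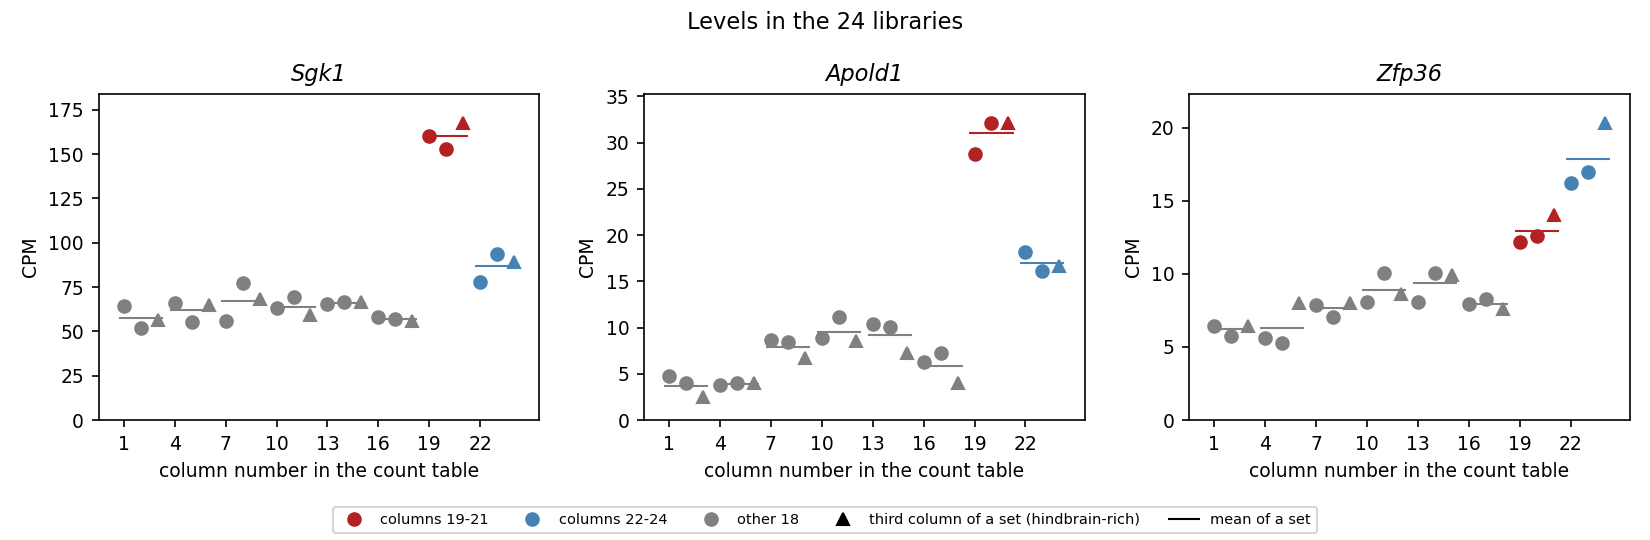
CPM of Sgk1, Apold1 and Zfp36 by column number in the 24 libraries, with red points for columns 19-21, blue for columns 22-24, grey for the other 18, triangles for the third, hindbrain-rich column of each set, and lines for the mean of each set. Sgk1 and Apold1 are highest in columns 19-21, while Zfp36 is highest in columns 22-24.

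The windows upstream of these starts are shown because their response motifs can be read from the letters. Windows are the 250 bases before a RefSeq start (GRCm38.p6, from the RefSeq table, not the mm39 build of the counts). Capitals mark the glucocorticoid response element (GNACA and TGTNC with 3 bases between), the cyclic AMP response element TGACGTCA, its core TGACG (which each full element contains on both strands), the CArG box of serum response factor and the E-box CACGTG, searched on both strands. The GC box GGGCGG was searched as well and is left in lower case.
Sgk1, the start numbered 5, chr10:21993640-21993889, plus strand: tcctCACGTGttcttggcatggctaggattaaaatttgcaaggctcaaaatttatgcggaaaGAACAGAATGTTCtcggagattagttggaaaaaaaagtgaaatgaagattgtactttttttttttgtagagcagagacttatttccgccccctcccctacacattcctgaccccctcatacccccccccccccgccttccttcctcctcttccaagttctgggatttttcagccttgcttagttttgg
Apold1, chr6:134981751-134982000, plus strand: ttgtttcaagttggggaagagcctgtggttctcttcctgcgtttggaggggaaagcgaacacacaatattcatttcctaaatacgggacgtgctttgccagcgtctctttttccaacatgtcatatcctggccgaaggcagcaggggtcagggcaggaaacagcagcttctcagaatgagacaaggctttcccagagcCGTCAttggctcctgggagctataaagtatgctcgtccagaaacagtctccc
Zfp36, chr7:28379229-28379478, minus strand: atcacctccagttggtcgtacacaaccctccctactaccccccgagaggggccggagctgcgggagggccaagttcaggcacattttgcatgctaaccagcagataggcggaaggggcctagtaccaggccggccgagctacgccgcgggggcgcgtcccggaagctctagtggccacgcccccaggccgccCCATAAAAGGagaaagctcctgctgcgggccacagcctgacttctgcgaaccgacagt
Per1, first start, chr11:69098699-69098948, plus strand: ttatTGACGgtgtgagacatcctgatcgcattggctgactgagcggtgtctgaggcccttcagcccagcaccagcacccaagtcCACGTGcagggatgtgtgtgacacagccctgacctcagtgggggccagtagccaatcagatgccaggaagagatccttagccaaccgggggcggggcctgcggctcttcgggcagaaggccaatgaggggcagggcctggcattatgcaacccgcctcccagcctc
The Sgk1 window shown is the only one of that gene with the glucocorticoid element, 188 bases before the start. It also holds an E-box and a GC box. Of the other 5 Sgk1 starts, the one numbered 2 holds a core and the one numbered 6 GC boxes. The Apold1 window holds a core, the Zfp36 window a CArG box and a GC box, and the Per1 window an E-box, a core and a GC box. Of 32851 RefSeq windows, 0.387% hold the glucocorticoid element, 1.55% the full cyclic AMP element, 17.8% the core, 1.47% the CArG box, 6.02% the E-box and 32.7% the GC box. Over 38 windows of 25 matched genes of the glucocorticoid-responsive list, 3 (7.89%) hold the glucocorticoid element, in Map3k6, Mt1 and Sgk1. The same 38 windows hold the full cyclic AMP element in 7.89%, the core in 26.3%, the CArG box in 0%, the E-box in 15.8% and the GC box in 47.4%. The glucocorticoid element was also searched in 3 other lists, and was found in 1 of 37 windows of the early-response list (Jund), 0 of 30 of the neuronal immediate early list and 0 of 22 of the circadian clock list. In the same order, the E-box was in 16.2%, 13.3% and 27.3% of those windows, the core in 56.8%, 53.3% and 27.3%, the full cyclic AMP element in 10.8%, 0% and 4.55%, the CArG box in 5.41%, 13.3% and 0%, and the GC box in 70.3%, 60% and 86.4%. The 4 neuronal immediate early windows with a CArG box all belong to 1 gene, Egr2. All of these are matches of letters and no evidence of binding.

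The glucocorticoid-responsive list lay mostly higher in columns 19 to 21. Of its 27 genes, 22 were above 0 and 5 below, with a median log2 difference of 0.23, against -0.01 over all 18349 genes tested. Of these 27, 11 were higher and 1 lower at an unadjusted p under 0.05, where 4.61% of all genes were higher and 5.93% lower. Both shares come from the contrast that chose the sets, and nothing is read from them. Arl4d, a small GTPase, stood at 26.5, 26.1 and 17.8 CPM against 14.1, 17.3 and 10.9 CPM (log2 difference 0.73, SE 0.10). Tsc22d3, the glucocorticoid-induced leucine zipper, stood at 90.0, 85.4 and 123 CPM against 67.7, 65.8 and 89.7 CPM (0.41, SE 0.06). Fkbp5, a co-chaperone of the glucocorticoid receptor, stood at 47.1, 46.0 and 21.5 CPM against 38.6, 32.1 and 18.1 CPM (0.34, SE 0.09). Arl4d did not overlap between the sets, whereas Tsc22d3 and Fkbp5 overlapped, with the hindbrain-rich columns at another level than the rest in both sets. Dusp1, a phosphatase of MAP kinases, was lower, at 51.9, 57.8 and 41.8 CPM against 67.8, 68.6 and 63.6 CPM (-0.42, SE 0.08). The metallothionein Mt1 (0.03, SE 0.06) and the transcription factor Klf9 (-0.11, SE 0.10) lay near 0, and were named with Plin4 (0.99, SE 0.22), a lipid droplet protein, after their values were seen.

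The receptors differed less. Nr3c1, the glucocorticoid receptor, had a log2 difference of -0.02 (SE 0.08), and Nr3c2, the mineralocorticoid receptor, of 0.23 (SE 0.15). Of the 16 tested genes of steroid receptors and handling, 11 lay above 0 with a median of 0.16. Among 16 tested substrates and sodium transport genes tied to SGK1, 6 lay above 0 and 10 below, with a median of -0.13. Ndrg1, a substrate of the kinase, was at 173, 164 and 205 CPM against 153, 140.3 and 152 CPM (0.27, SE 0.08), and Nedd4l, a ubiquitin ligase that the kinase inhibits, had a log2 difference of -0.18 (SE 0.06).

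Early-response genes split in direction. Of 38 tested genes of the early-response and mRNA decay list, 24 lay above 0 and 14 below, with a median of 0.05, and 7 were higher and 4 lower at an unadjusted p under 0.05, where 4.61% of all genes were higher and 5.93% lower. Here too nothing is read from these shares. Klf4, a transcription factor of endothelium and other cells, stood at 20.1, 18.5 and 17.9 CPM against 11.2, 11.2 and 12.6 CPM (0.69, SE 0.10). Lower members beside Zfp36 and Dusp1 were the antiproliferative genes Btg2 (-0.38, SE 0.12) and Btg1 (-0.33, SE 0.10). Maff (0.98, SE 0.21), a small bZIP factor, and Atf3 (0.84, SE 0.21), a stress-induced factor, were higher and were named, as was Btg1, after their values were seen.

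Neuronal immediate early genes, whose transcription follows neuronal firing, lay higher in columns 19 and 20, whereas column 21 was close to column 24. The mean log2 CPM of the 23 genes was 5.90, 5.84 and 3.88 in columns 19, 20 and 21 and 5.28, 5.42 and 3.90 in columns 22, 23 and 24. In the fit, 18 of the 23 lay above 0, with a median log2 difference of 0.35. At an unadjusted p under 0.05, 11 were higher and 0 lower, where 4.61% of all genes were higher and 5.93% lower. Comparing 19 with 22, 20 with 23 and 21 with 24, 10 of the 23 were higher in all 3 pairs and 2 were lower, against 16.3% and 17.7% of all genes. The contrast is the one that chose the sets, and nothing is read from these shares. Each of the 3 pairs also crosses E code: 19 and 21 are E3 against E4, and 20 is E4 against E3. Nr4a3, an orphan nuclear receptor, stood at 84.8, 65.9 and 18.1 CPM against 32.4, 29.2 and 10.5 CPM (1.12, SE 0.14). Egr2, a zinc finger factor, was at 17.4, 17.9 and 0.946 CPM against 6.29, 6.09 and 0.824 CPM (1.18, SE 0.24). Per1, a clock and immediate early gene, was at 153, 156 and 87.4 CPM against 91.3, 86.3 and 70.4 CPM (0.63, SE 0.10). Nr4a3 and Egr2 are low in both hindbrain-rich columns, so their differences rest mainly on columns 19, 20, 22 and 23. Fos, a subunit of AP-1, was at 44.2, 38.7 and 21.4 CPM against 29.0, 20.6 and 15.6 CPM (0.64, SE 0.14). Per1 and Fos overlapped between the sets through the lower level in column 21.

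**Figure D2:**
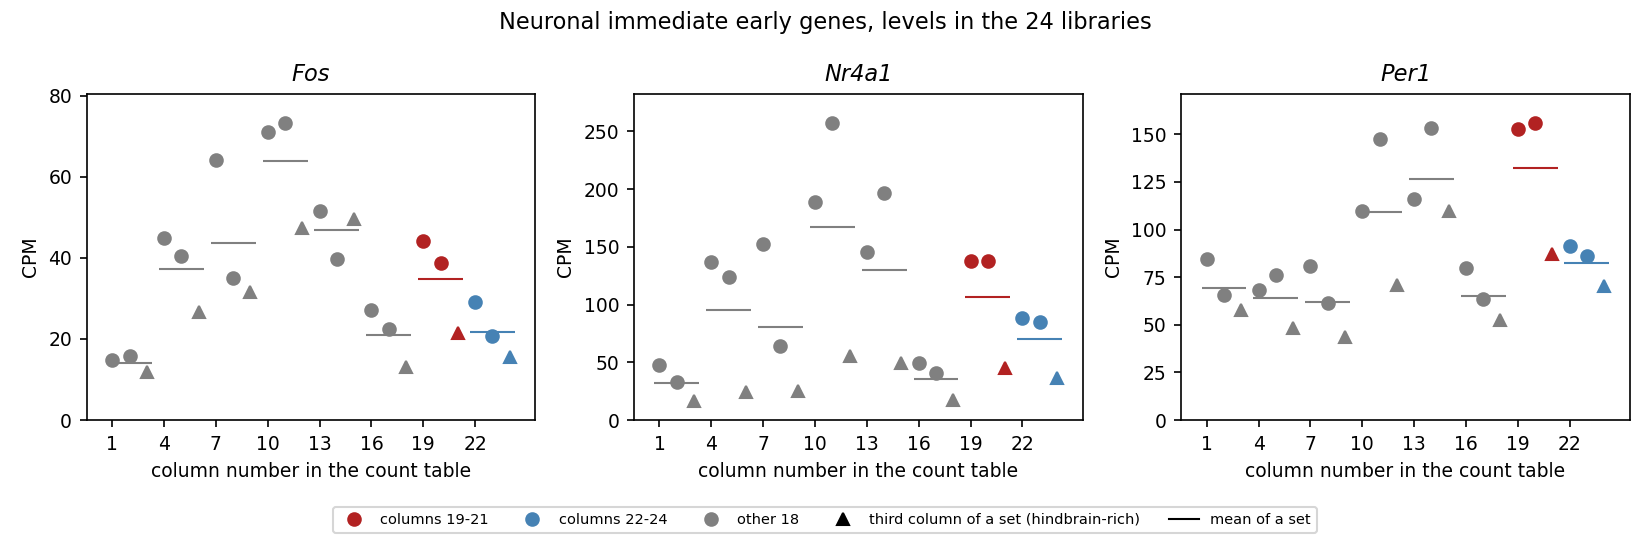
CPM of Fos, Nr4a1 and Per1 by column number in the 24 libraries, with the same colours, triangles and mean lines as for Sgk1. The other libraries reach 73.2 CPM for Fos and 257 CPM for Nr4a1, above columns 19-21. For Per1 they reach 153 CPM, below the highest of columns 19-21 at 156 CPM.

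The higher Fos and Nr4a1 of columns 19 to 21 did not stand out from the series, unlike Sgk1 and Apold1, on which the sets were picked. Fos ran up to 73.2 CPM and Nr4a1 up to 257 CPM in other libraries, against 44.2 CPM and 138 CPM at most in columns 19 to 21. Nr4a3 and Per1 reached 84.8 and 156 CPM in columns 19 to 21, against at most 75.9 and 153 CPM in the other 18 libraries. Their lowest values in columns 19 to 21, 18.1 and 87.4 CPM, lay within the range of those 18. Over all 20900 genes, 12 (0.0574%) were above all other 21 libraries in columns 19 to 21, and 17 (0.0813%) were below. The other 7 sets of 3 columns had 1 to 41 genes above and 2 to 51 below all other libraries. The 12 higher genes were Sgk1, Upf2, Fam222b, Ddit4, Nfkbia, Apold1, Klf4, Arrdc2, Zfp458, Maff, Tmem252 and Gm30571. They include 4 of the 27 glucocorticoid-responsive genes (Sgk1, Nfkbia, Ddit4 and Arrdc2) and 3 of the 38 early-response genes (Apold1, Klf4 and Maff). As columns 19 to 21 were picked for high Sgk1 and Apold1, nothing is read from these counts. Among the 17 lower genes were Pdgfrb, the pericyte growth factor receptor, at 34.1 to 34.7 CPM against 36.0 to 52.4 CPM in the 18 other libraries, and Pecam1, an endothelial adhesion molecule.

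The medians of the clock, chaperone and hypoxia lists lay between 0.03 and 0.16. Per2, a repressor of the clock, was at 36.7, 36.7 and 26.4 CPM against 21.9, 20.4 and 16.5 CPM (0.75, SE 0.08), and Bhlhe40 at 187, 183 and 102 CPM against 95.6, 100.5 and 96.8 CPM (0.64, SE 0.16). Of 18 clock genes 11 lay above 0 with a median of 0.03, so Per1, Per2 and Bhlhe40 stood apart from most of the list. Of 25 heat shock and chaperone genes, 22 lay above 0 with a median of 0.16; the co-chaperone Dnajb1 had 0.31 (SE 0.07). Of 16 hypoxia and glycolysis genes, 10 lay above 0 with a median of 0.14.

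Vascular genes were lower in columns 19 to 21. Of 15 endothelial genes, 14 lay below 0, with a median of -0.21. Over all 18349 genes tested, 9721 lay below 0 and 8628 above. The contrast is of the picked sets, so nothing is read from this count or those of the other lists. Cldn5, a tight junction protein of brain endothelium, was at 28.5, 28.3 and 30.3 CPM against 37.3, 39.1 and 39.9 CPM (-0.42, SE 0.07), without overlap. Kdr, the VEGF receptor, had -0.35 (SE 0.09). The endothelial list summed to 520 to 566 CPM in columns 19 to 21 and 601 to 670 CPM in 22 to 24. In bulk tissue, fewer endothelial cells and less RNA per cell cannot be told apart. Apold1 was higher while the endothelial list was lower, and the part of vessel content in Sgk1, Apold1 or Zfp36 was not tested.

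Mural and fibroblast genes were lower too, 12 of 15 below 0 with a median of -0.21. Pdgfrb stood at 34.4, 34.1 and 34.7 CPM against 51.1, 44.5 and 49.5 CPM (-0.50, SE 0.08). Among the 12 lower genes with the smallest p, the collagen chain Col4a1 was at 30.2, 30.4 and 26.4 CPM against 51.2, 46.8 and 41.0 CPM (-0.68, SE 0.07), and Col4a2 had -0.56 (SE 0.08). The elastic fibre gene Eln, also one of these 12, was at 5.66, 6.63 and 4.90 CPM against 22.9, 11.9 and 15.7 CPM (-1.57, SE 0.24). Col4a1, Col4a2 and Eln did not overlap between the sets. The mural and fibroblast list summed to 569 to 633 CPM in columns 19 to 21 and 638 to 845 CPM in 22 to 24. By mean log2 CPM the sets overlapped, at 3.821, 3.817 and 3.867 against 4.276, 3.816 and 4.39. Of 14 homeostatic microglia genes, 12 lay below 0 with a median of -0.16, and the list summed to 257 to 534 CPM and 248 to 603 CPM.

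Brain region also differed between the sets. The 10 thalamic genes summed to 922, 852 and 1028 CPM in columns 19, 20 and 21 and to 582, 235 and 1153 CPM in 22, 23 and 24. Their median log2 difference was 0.99, with 10 of 10 above 0. The 11 striatal genes summed to 301, 1343 and 397 CPM against 1521, 1576 and 392 CPM, with a median of -0.65 and 11 of 11 below 0. Neither set was uniform, since column 23 had the lowest thalamic sum and column 19 a low striatal sum. Region lists differed between other adjacent sets as well. The striatal median was 1.15 in columns 1 to 3 minus 4 to 6 and -0.49 in columns 10 to 12 minus 13 to 15. The thalamic median was -0.36 and -0.37 in the same order. A term for the thalamic list, chosen after seeing the data, left Sgk1 at 1.01 (SE 0.09), Apold1 at 0.82 (SE 0.13) and Zfp36 at -0.45 (SE 0.12). The glucocorticoid-responsive median was then 0.15 and Fos stood at 0.38 (SE 0.11). Blood genes were low (summed CPM 6.67 to 25.3), as was the pituitary gene Gh (1.28 to 3.72 CPM). With a term for titled month, the set difference rested on column 21 against column 24, a single hindbrain-rich library on each side. In that fit Sgk1 was at 0.93 and Zfp36 at -0.51. The median was -0.12 for the early-response list, 0.12 for the neuronal immediate early list and -0.13 for the thalamic list. The part of region or month in these differences was not tested.

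**Figure D3:**
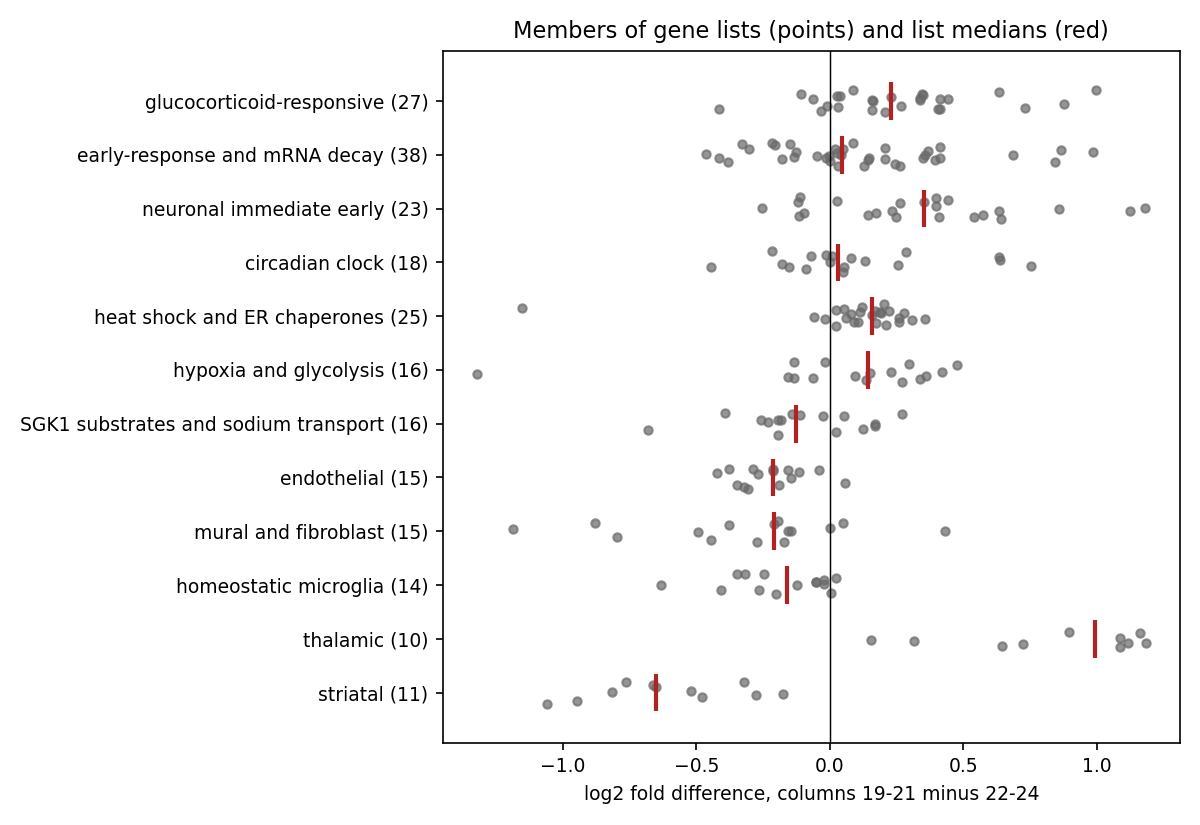
Log2 difference (columns 19-21 minus 22-24) of each tested member of 12 gene lists, as points, with red bars for the list medians and the number tested in brackets. The thalamic and striatal lists have the medians farthest from 0, at 0.99 and -0.65.

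Over all 18349 genes, 1 (0.00545%) was called by edgeR's quasi-likelihood test at an adjusted p under 0.05, Ide, and 257 (1.40%) by DESeq2. As the sets were picked, these counts describe the spread and support nothing. Ide encodes insulin-degrading enzyme, a protease of insulin and amyloid beta. It stood at 61.0, 61.1 and 74.7 CPM against 117, 131 and 166 CPM (-1.07, SE 0.07), without overlap. Across the series, columns 1 to 3 (50.6 to 75.3 CPM) and 4 to 6 (56.1 to 74.7 CPM) were as low as columns 19 to 21, and the remaining sets ran from 84.8 to 166 CPM. Both E codes were present in each of these low sets.

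Near Ide on chromosome 19, some genes shared this pattern and others did not. Of 13 tested genes from Hectd2 to Exoc6, 7 lay below 0 and 6 above. Positions here follow the gene order of the RefSeq table, in which Fgfbp3 comes just before Btaf1. Btaf1, a factor associated with the TATA-box binding protein, was at 43.3, 41.1 and 44.0 CPM against 56.6, 58.7 and 65.5 CPM (-0.50, SE 0.07). Fgfbp3, a growth factor binding protein, had -0.75 (SE 0.17), and 4931408D14Rik, next to Ide, -3.13 (SE 0.35), at 0.130 to 0.270 CPM against 1.64 to 1.81 CPM. Marchf5 (0.06, SE 0.06), which lies among them, and Kif11 (0.04, SE 0.26) and Tnks2 (-0.10, SE 0.07), beside them, did not follow. Cpeb3, also among them, was higher without overlap, at 106 to 131 CPM against 95.2 to 105 CPM (0.23, SE 0.09). Ppp1r3c, a glycogen-targeting subunit of protein phosphatase 1, went the opposite way without overlap, at 48.5, 52.1 and 45.3 CPM against 37.05, 40.0 and 34.97 CPM (0.38, SE 0.07). All but Btaf1 and Ide were named after their values were seen, and the strand setting of the counts is not given in the sources used here.

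**Figure D4:**
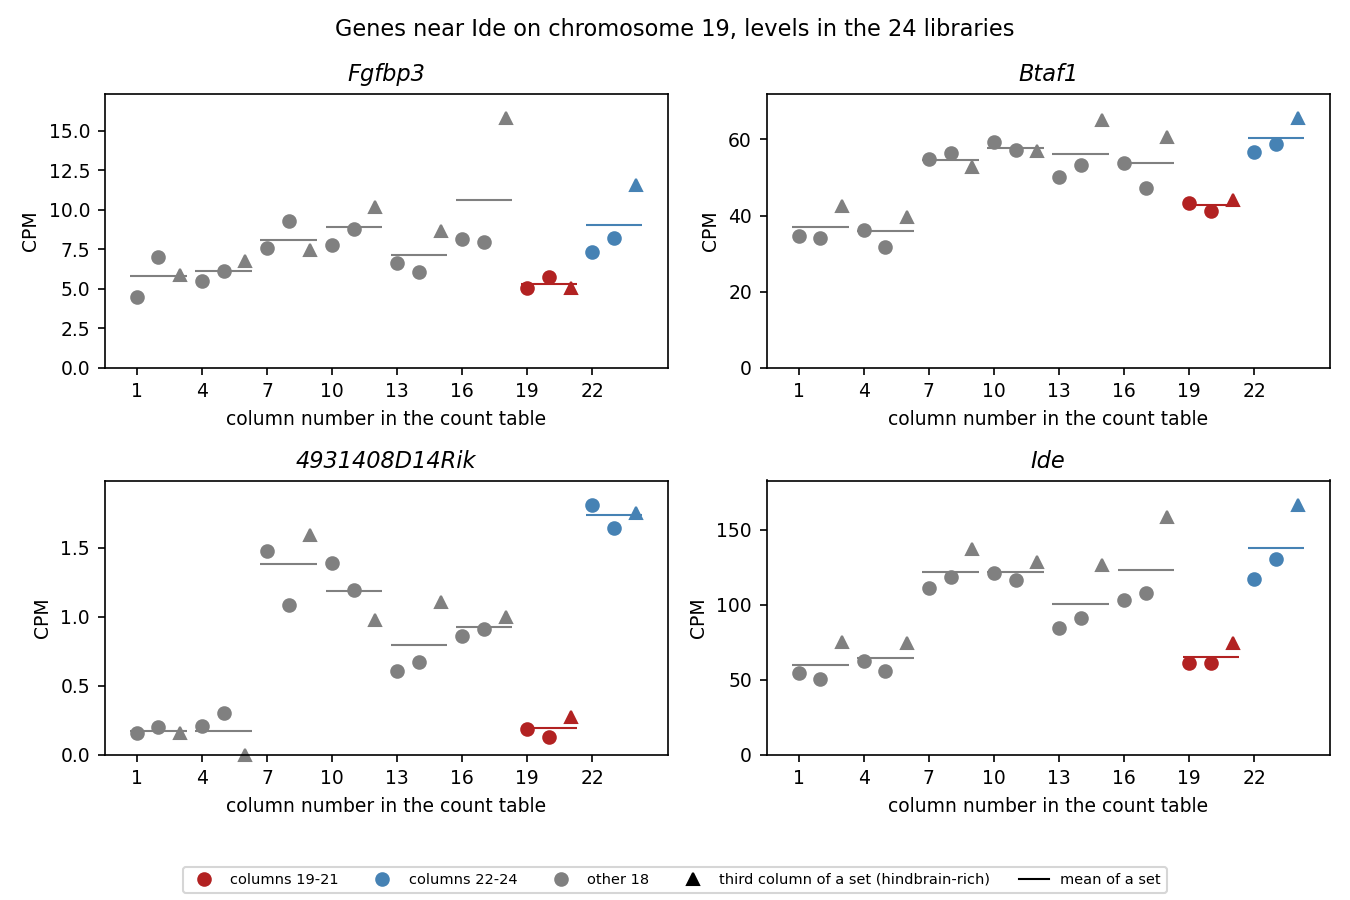
CPM of Fgfbp3, Btaf1, 4931408D14Rik and Ide by column number in the 24 libraries, with the same colours, triangles and mean lines as for Sgk1. Columns 1-6 and 19-21 are low for Btaf1, 4931408D14Rik and Ide.

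Of the 12 higher genes with the smallest p, besides those above, Il33, an alarmin of glia, was at 87.1, 81.2 and 97.0 CPM against 47.2, 42.2 and 46.0 CPM (0.96, SE 0.08). Abca8a, a lipid transporter, was at 11.0, 11.4 and 10.7 CPM against 5.32, 4.47 and 4.08 CPM (1.25, SE 0.14). Nefh, the heavy neurofilament, had 0.87 (SE 0.11), Gm14403 0.77 (SE 0.10), Sdhaf2 0.53 (SE 0.07), Zdhhc22 0.52 (SE 0.08) and Edil3 0.52 (SE 0.08). Among the 12 lower genes were Capn11 (-2.20, SE 0.34), Col6a1 (-0.92, SE 0.12), Tmem181b-ps (-0.90, SE 0.09), Rnf122 (-0.89, SE 0.11), Apcdd1 (-0.57, SE 0.07), Prom1 (-0.55, SE 0.08) and Ptprb (-0.53, SE 0.08). Tmem181b-ps is annotated as a pseudogene, so its counts may hold reads of its parent gene. The genes of the series title differed little between the sets: Apoe, the apolipoprotein E gene, had -0.01 (SE 0.10), the chromatin regulator Asxl1 0.09 (SE 0.07) and the liver X receptor Nr1h3 0.12 (SE 0.20).

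**Figure D5:**
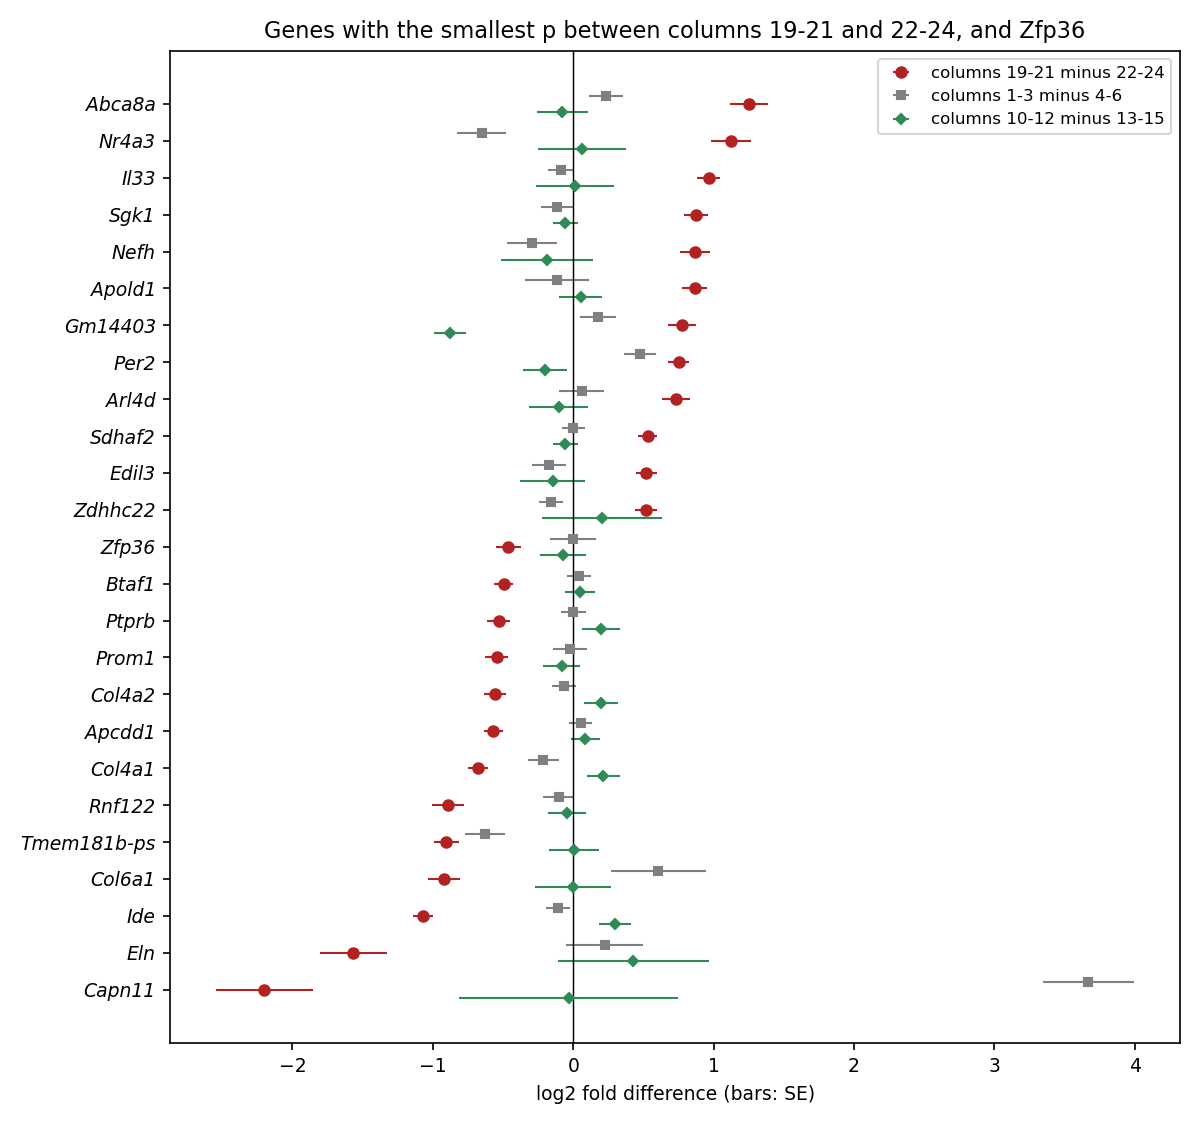
Log2 difference with SE bars for the 12 higher and 12 lower genes and Zfp36, in columns 19-21 minus 22-24 (red circles), 1-3 minus 4-6 (grey squares) and 10-12 minus 13-15 (green diamonds). Capn11 is lower in columns 19-21 and higher in columns 1-3.

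The same comparison of adjacent column sets was tested in libraries that did not enter the choice. In columns 1 to 3 (E3-05 1, E4-05 1 and E3-05 2, titled January) against 4 to 6 (E4-05 2, E3-05 3 and E4-05 3, titled January and February), edgeR called 3 of 18660 genes (0.0161%). Fos was lower in columns 1 to 3 (-1.39, SE 0.10, edgeR adjusted p = 0.0188), as was Wdfy1 (-1.36, SE 0.12, edgeR adjusted p = 0.0252), and Capn11, a calpain protease, was higher (3.67, SE 0.32, edgeR adjusted p = 0.0252). Sgk1 had -0.12 (SE 0.12, edgeR adjusted p = 0.99), Apold1 -0.12 (SE 0.23, edgeR adjusted p = 0.995) and Zfp36 -0.003 (SE 0.16, edgeR adjusted p = 0.999). Wdfy1 was named after its values were seen. All 3 calls ended with no term for the third column, with an E code term or without E3-05 3, and DESeq2 called 98 genes. Fos stood at 14.7, 15.7 and 11.8 CPM in columns 1 to 3 and 44.8, 40.5 and 26.7 CPM in 4 to 6, the opposite order to that in columns 19 to 24, with no overlap.

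In columns 10 to 12 (E4-10 1, E3-10 2 and E4-10 2, titled March) against 13 to 15 (E3-10 3, E4-10 3 and E3-10 4, titled April), set and month cannot be told apart. Here edgeR called 0 of 18888 genes, and DESeq2 called 23. At an unadjusted p below 0.05, edgeR gave 597 genes. Sgk1 had -0.06 (SE 0.09), Apold1 0.05 (SE 0.15) and Zfp36 -0.07 (SE 0.16), each at an edgeR adjusted p of 0.998. Sgk1 stood at 59.0 to 69.4 CPM in these sets, and Apold1 at 7.25 to 11.1 CPM. Differences the size of those in columns 19 to 24 were not seen for these 3 genes in either pair of sets. Some other named genes differed there by as much as in columns 19 to 24. For columns 1 to 3 minus 4 to 6, Dusp1 had -0.89 (SE 0.11), Btg2 -1.02 (SE 0.20) and Fkbp5 0.05 (SE 0.10). For columns 10 to 12 minus 13 to 15, Btg2 had 0.74 (SE 0.10), Fkbp5 0.39 (SE 0.14) and Dusp1 0.07 (SE 0.16). Tsc22d3 had -0.13 and -0.11 in the same order.

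Whether Sgk1 varied with 10 partner genes was tested in the 18 libraries outside columns 19 to 24, with log2 CPM. The 12 libraries at positions 1 and 2 and the 6 at position 3 gave 20 relations, of which 0 passed Benjamini-Hochberg adjustment of a two-sided permutation test. In the 12 libraries, Sgk1 and Apold1 had r = 0.47 (permutation p = 0.123, adjusted 0.492) and rho = 0.48 (permutation p = 0.116, adjusted 0.54), and r = 0.31 without the 2 libraries farthest in Sgk1. Within time code 05 the r was 0.38 over 6 libraries. Tsc22d3 had r = 0.58 (permutation p = 0.0463, adjusted 0.492), rho = 0.47 (permutation p = 0.128, adjusted 0.54) and r = 0.25 without those 2, so over the 12 libraries its relation rested on them. Within time code 05 its r was 0.71 over 6 libraries. At position 3, Tsc22d3 had r = 0.72 (exact permutation p = 0.0778, adjusted 0.492, n = 6) and rho = 0.83 (exact permutation p = 0.0583, adjusted 0.54), and r = 0.27 without 2 libraries. Other partners moved up when the 2 libraries were left out of the 12, Per1 from r = 0.32 to 0.68 and Cdkn1a from r = 0.16 to 0.69, while within time code 05 their r was -0.39 and -0.40. Zfp36 had r = 0.36 (permutation p = 0.255, adjusted 0.51), rho = 0.41 (permutation p = 0.184, adjusted 0.54) and r = 0.36 without those 2. Fkbp5 went the opposite way in the 12 libraries, with r = -0.47 (permutation p = 0.12, adjusted 0.492) and rho = -0.36 (permutation p = 0.245, adjusted 0.54). Its r was 0.032 without those 2, and -0.80 within time code 05 over 6 libraries. At position 3 its r was 0.30 (exact permutation p = 0.506, n = 6). At position 3, Apold1 had r = 0.51 (exact permutation p = 0.261, n = 6) and rho = 0.37 (exact permutation p = 0.497), with r = 0.40 without 2 libraries. Dusp1 had r = 0.74 there (exact permutation p = 0.0903, adjusted 0.492), Fos 0.67 (p = 0.188) and Zfp36 0.60 (p = 0.228). Without 2 libraries these were 0.92, 0.59 and 0.76. Cdkn1a had r = 0.41 at position 3, Per1 0.078, Junb -0.057 and Btg2 -0.082.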

How the data were processed

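Polyadenylated RNA of 24 mouse brain libraries was aligned by the authors with HISAT2 2.1.0 to mm39 and counted with featureCounts 2.0.6, per the submitters' processing notes, and the deposited table holds unnormalized counts for 40836 genes. Annotation and strand setting are not given in the sources used here. Libraries were joined to columns by the column number in their labels. Among counts of 1 to 19, 62.6% to 70.8% per library were even, the pattern of counting both reads of a pair. Genes were filtered by filterByExpr and fitted in edgeR 4.0.16 (R 4.3.3; TMM factors, quasi-likelihood F test) with a term for the third column of each set, leaving 3 residual degrees of freedom. CPM use TMM factors over all 24 libraries. Calls used p-values adjusted by Benjamini-Hochberg, at under 0.05. The 2 column sets, the 31 gene lists and the named genes were chosen with earlier results of these data known. Named were Sgk1, Apold1 and Zfp36, the 12 genes of each direction with the smallest p, a mean CPM of at least 1 and 1 sign in all 3 position pairs (fewer than 4 passed the threshold), up to 4 per list, and partner, title and receptor genes. Alternatives used RLE and upper-quartile factors, other filters, DESeq2 1.42.0, limma 3.58.1 (voom), other terms, and leaving out each library. The scripts were tested on simulated data, where the edgeR fit recovered sizes and signs but made more false calls than its threshold allows. Relations used Python 3.11.15 and SciPy 1.17.1. No pair of libraries looked like a duplicate (mean chi-square per gene at least 17.6 over 276 pairs). Promoter letters came from RefSeq (GRCm38.p6); of 24 genes looked up, some of them picked after their values were seen, 22 matched, leaving Gm30571 and Per2.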

Additional observations from a re-analysis of the deposited data

Results flagged for a closer look

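The levels of Sgk1, Apold1 and Zfp36 were checked for single libraries far from the others in each of the 6 groups of 4 libraries, 18 groups of values in all. Chance alone would give about 1 in 20. In E3-05 1, Sgk1 was at 64.1 CPM, far from the other 3 E3-05 libraries relative to the group's whole range. In E4-05 4, Apold1 was at 8.448 CPM, likewise far from the other 3 of E4-05. Neither library is among columns 19 to 24.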

How the results depend on the processing

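The log2 differences of Sgk1, Apold1 and Zfp36 between columns 19 to 21 and 22 to 24 kept their direction under the 19 other settings, as did the 12 higher and 12 lower genes; of 148 named genes, 29 changed sign in 1 setting or more. The count of 1 gene was 136 with no filter, 257 with DESeq2, 2 with limma-voom, 15 with all 24 libraries and 9 with a month term; it was 0 with no term for position 3, with only positions 1 and 2, with a term for each position, with an E code term, with a thalamic term (chosen after seeing the data) or at an adjusted p under 0.01. Leaving out single libraries gave 0 to 1, and Ide remained called only without E4-15 3. For columns 1 to 3 minus 4 to 6 the 3 became 131 with no filter, 98 with DESeq2, 0 with no term for position 3, 14 with only positions 1 and 2, 24 with a term for each position, 8 with all 24 libraries, 0 with an E code term, and 0 to 29 without single libraries. For columns 10 to 12 minus 13 to 15 the 0 became 3 with no filter, 23 with DESeq2 and 3 with all 24 libraries. Zfp36, columns 1 to 3 minus columns 4 to 6, reversed with no filter (0.000371), only positions 1 and 2 (0.16) and an E code term (0.032), and ranged from -0.10 to 0.16 without single libraries; Apold1 reversed with only positions 1 and 2 (0.16) and ranged from -0.28 to 0.17. In columns 10 to 12 minus 13 to 15, Apold1 reversed with only positions 1 and 2 (-0.039) and ranged from -0.043 to 0.16, and Zfp36 from -0.18 to 0.0082. Without the 2 libraries farthest in Sgk1, its r with Fkbp5 reversed. It went from -0.47 to 0.032 at positions 1 and 2 and from 0.30 to -0.67 at position 3. The cause of these changes was not tested. No paired analysis was possible because the library numbers of the labels do not match across sets: columns 19 to 21 and 22 to 24 share only library number 3, columns 1 to 3 and 4 to 6 share only number 2, and columns 10 to 12 and 13 to 15 share none. The term for each position compares columns by their place in a set, not by number. With 3 libraries a side, small differences could not be detected.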
